A study of Mus musculus with 8 samples.

Results

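The genes described here are the zinc sensor Mtf1, the metallothioneins Mt1 and Mt2, the zinc exporter Slc30a1 and the zinc importers Slc39a6, Slc39a7, Slc39a10 and Slc39a14. They are 8 of the 24460 genes in the count table, and all 8 passed the filter on low counts. They were picked as MTF1 with its targets on the one hand and zinc importers on the other, with their normalised counts across the RHPS4 doses in view. Their levels and dose differences are therefore a description and carry no test.

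RNA-Seq was done on wild type mouse embryonic fibroblasts (MEFs), connective tissue cells cultured from embryos, grown to subconfluence. RHPS4 was absent from 3 libraries (0 µM), at 2 µM in 3 others and at 10 µM in 2. RHPS4 is a small molecule that binds G-quadruplexes, 4-stranded folds of guanine-rich DNA, and the study compared a low dose with a high dose and with no drug. All groups carried the same genotype and differed in the labels only by the dose, and the labels do not give each library its own exposure time. Nothing in the labels says that the replicates were separate cultures, so the p-values below measure only the spread between these libraries, which may be technical.

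Zinc inside cells is kept at a low free level by a few families of proteins. MTF1 is a transcription factor whose zinc fingers sense free zinc. When zinc or cadmium rises it binds metal response elements in promoters, and it is known to induce the metallothioneins, small cysteine-rich proteins that bind the metal, and Slc30a1 (ZnT1), which exports zinc across the plasma membrane. Slc39 (ZIP) proteins move zinc the other way, into the cytosol, and Slc39a10 is a known case of an importer that MTF1 holds down when zinc is plentiful. Metallothionein genes also answer to glucocorticoids and to oxidants, so genes known for those responses are given further on.

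Promoter windows from the RefSeq table for GRCm38.p6 were searched for 6 of the 8 genes. A window covers 250 bases before to 50 bases after the start. Slc39a6 and Slc39a14 had no entry. The core of the metal response element was searched on both strands as TGCACNC and TGCGCNC. These differ in a single base, so that no position on a given strand can match both. At least 1 match was found in 25.7% of the 32851 windows of this length, at least 2 in 7.1% and at least 3 in 2.0%. Mt1 had 3 matches, Mt2 had 4, a number reached by 0.5% of all windows, and Slc30a1 had 2. No match to these letters lay in the windows of Mtf1, Slc39a7 or either start of Slc39a10. A match is a description of letters and not a measured binding site. Positions and numbers of matches rest on the RefSeq start. Bases outside the windows were not searched, so a gene may hold further matches nearby. Guanine and cytosine made up 60.7%, 67.7% and 73.0% of the Mt1, Mt2 and Slc30a1 windows. In the windows without a match they made up 38.7% to 72.7%. The shares over all windows were not matched for this content. The stretches below show the matches of the known MTF1 targets, each 255 bases long and ending 30 bases after the RefSeq start, on the plus strand and 5′ to 3′, with the matches in capitals. They lie at chr8:94178864-94179118 (Mt1), chr8:94172393-94172647 (Mt2) and chr1:191906556-191906810 (Slc30a1), and the second Slc30a1 match, which begins at base 31, falls after the stretch shown.
Mt1: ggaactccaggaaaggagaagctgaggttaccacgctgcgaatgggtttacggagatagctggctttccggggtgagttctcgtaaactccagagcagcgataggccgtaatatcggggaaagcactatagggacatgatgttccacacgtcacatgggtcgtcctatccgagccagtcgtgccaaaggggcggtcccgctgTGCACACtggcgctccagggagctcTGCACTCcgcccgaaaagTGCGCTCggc
Mt2: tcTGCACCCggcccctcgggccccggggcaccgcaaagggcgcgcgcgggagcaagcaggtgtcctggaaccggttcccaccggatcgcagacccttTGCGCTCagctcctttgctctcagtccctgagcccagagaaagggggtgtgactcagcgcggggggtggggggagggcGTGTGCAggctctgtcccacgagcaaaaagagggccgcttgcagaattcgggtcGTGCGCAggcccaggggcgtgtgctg
Slc30a1: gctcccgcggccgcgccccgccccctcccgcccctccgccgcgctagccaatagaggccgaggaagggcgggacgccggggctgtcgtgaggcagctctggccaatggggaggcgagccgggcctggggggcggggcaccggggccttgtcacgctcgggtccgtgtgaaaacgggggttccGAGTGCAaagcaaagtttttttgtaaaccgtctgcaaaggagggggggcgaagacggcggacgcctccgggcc

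**Figure D1:**
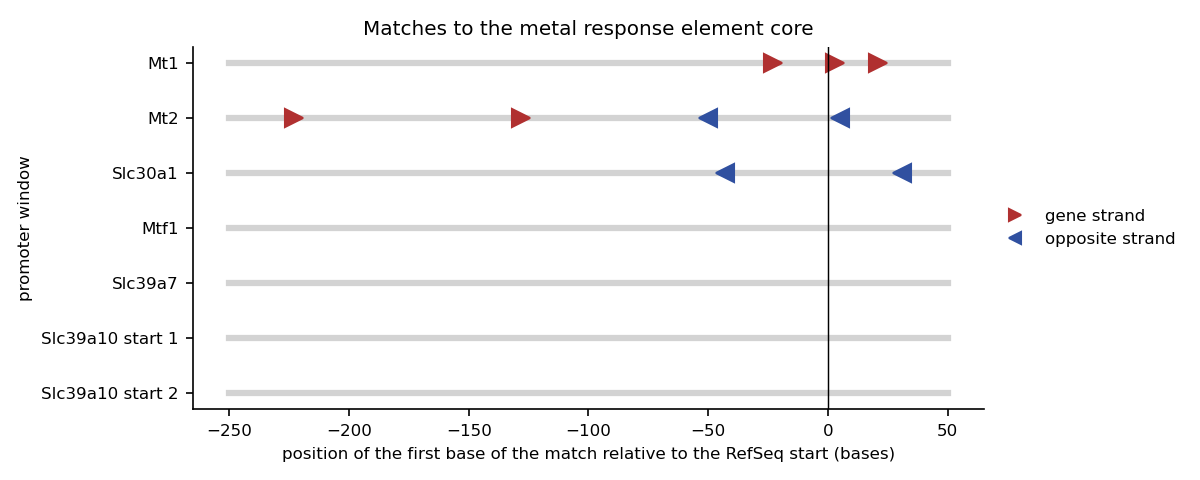
Matches to the metal response element core in the 300-base promoter windows of the 6 genes whose RefSeq window was searched (Slc39a10 has 2 starts). The x axis is the position of the first base of a match relative to the RefSeq start, in bases, and triangles point along the strand of the match. The 3 matches of Mt1 lie between positions -23 and 21, the 4 of Mt2 are spread from -223 to 5, and 4 windows hold none.

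Libraries held 10455965 to 26688121 counts, and levels are CPM, the counts of a gene scaled to a common library size, after TMM, a correction for differences in composition between libraries. A floor of 3 counts corresponded to 0.119 to 0.311 CPM. The mtDNA share of the counts was 13.2 to 14.4% at 0 µM, 7.4 to 8.26% at 2 µM and 5.33 to 6.32% at 10 µM. Fibroblast markers were abundant, with 9 of 10 over 1 CPM (Lum was the exception) and sums of 12800 to 13300 CPM at 0 µM, 11400 to 11800 CPM at 2 µM and 11100 to 11700 CPM at 10 µM. Summed markers of leukocytes (1 of 5 over 1 CPM), endothelium (2 of 4), epithelium (1 of 4), muscle (0 of 4) and adipocytes (0 of 3) lay between 0.83 and 5.47 CPM in every library. No marker was at 0 in every library, and the part of other cells in the results was not tested. In bulk RNA, fewer cells that express a gene and less of its RNA per cell cannot be told apart.

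Mtf1 itself was level across the doses. Its CPM was 21.9, 23.8 and 24.8 in the 0 µM libraries, 22.0, 21.9 and 23.2 in those at 2 µM, and 23.9 and 21.6 in those at 10 µM. The groups overlapped in all 3 comparisons. Against 0 µM, edgeR gave a log2 fold change of -0.08 (SE 0.086) for the low dose and -0.05 (SE 0.0954) for the high dose. With scaling to total counts alone the latter was 0.16, so that not even its sign was fixed.

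Mt1 was lower at 2 µM than at 0 µM and lower again at 10 µM. The 0 µM libraries had 35.0, 32.3 and 32.2 CPM, the 2 µM libraries 29.7, 24.2 and 22.7 CPM, and the 10 µM libraries 19.9 and 12.7 CPM. No library of any dose overlapped with those of another dose, and the 10 µM libraries differed from each other by about as much as the whole range at 2 µM. The means were 33.2 ± 1.56 (SD, n = 3), 25.5 ± 3.68 (n = 3) and 16.3 ± 5.12 CPM (n = 2). The log2 fold change against 0 µM was -0.38 (SE 0.145) at 2 µM and -1.01 (SE 0.17) at 10 µM, and it was -0.63 (SE 0.172) between 10 and 2 µM. The value at 10 µM was -0.76 without 10 µM replicate 2 and -1.42 without 10 µM replicate 1, so its size rests on which of these libraries is used. That between 10 and 2 µM was -0.39 and -1.05 in the same way, and with total counts alone it was -0.50, which is under 1.5-fold.

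Mt2 was a rare transcript in these cells, with 5 to 35 counts per library, which limits its precision. Its level was 0.727, 1.73 and 0.913 CPM at 0 µM, 1.85, 1.22 and 1.55 CPM at 2 µM, and 0.549 and 0.36 CPM at 10 µM. The 0 and 2 µM libraries overlapped, and both 10 µM libraries lay under all others. The log2 fold change was 0.38 (SE 0.325) at 2 µM and -1.34 (SE 0.465) at 10 µM against 0 µM, and -1.72 (SE 0.46) between 10 and 2 µM. When 1 library was left out, the value at 2 µM ran from 0.16 (without 0 µM replicate 3) to 0.84 (without 0 µM replicate 2, the highest control). It was also low, at 0.25, without 0 µM replicate 1 or 2 µM replicate 1. The value at 10 µM ran from -1.72 (without 10 µM replicate 1) to -0.90 (without 0 µM replicate 2). Thus Mt1 and Mt2, which lie 5.5 kb apart on chromosome 8, were both low at 10 µM, while at 2 µM the Mt1 libraries lay below the controls and those of Mt2 among or above them. Within a library, the log2 ratio of Mt1 to Mt2 counts was 4.93 ± 0.664 at 0 µM (n = 3), 4.03 ± 0.211 at 2 µM (n = 3) and 5.05 ± 0.0699 at 10 µM (n = 2).

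Slc30a1 had the largest difference of the 8 genes at the low dose, and in the opposite direction to Mt1. It was at 2.49, 3.37 and 2.70 CPM at 0 µM, at 5.91, 6.77 and 7.19 CPM at 2 µM, and at 2.38 and 2.81 CPM at 10 µM. All 2 µM libraries were above all others, and of the 10 µM libraries 1 lay among the controls and 1 just below them. Mean levels were 2.85 ± 0.459 (n = 3), 6.62 ± 0.655 (n = 3) and 2.59 ± 0.3 CPM (n = 2), from 24 to 121 counts per library. The log2 fold change was 1.20 (SE 0.158) at 2 µM, a 2.29-fold higher level, and -0.17 (SE 0.203) at 10 µM against 0 µM. Between 10 and 2 µM it was -1.37 (SE 0.188). Leaving out any 1 library kept the value at 2 µM between 1.13 and 1.34 and that between 10 and 2 µM between -1.52 and -1.29. With total counts alone the 10 µM value against 0 µM was 0.04.

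Among the importers, Slc39a10 was the member with all libraries lower at both doses. This plasma membrane importer had 201, 178 and 180 CPM at 0 µM, 133, 130 and 143 CPM at 2 µM, and 140 and 169 CPM at 10 µM. Relative to 0 µM, the log2 fold change of Slc39a10 was -0.46 (SE 0.0858) at 2 µM and -0.27 (SE 0.096) at 10 µM, and 0.19 (SE 0.0955) between 10 and 2 µM, where the libraries overlapped. The 10 µM libraries stood apart, and the 10 µM value against 0 µM ran from -0.44 to -0.18 when 1 library was left out. Scaling to total counts alone gave -0.38 at 2 µM and -0.05 at 10 µM.

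Slc39a14 was low at the high dose alone. This importer, which also carries iron and manganese, had 97.4, 95.1 and 94.8 CPM at 0 µM, 89.8, 101 and 98.3 CPM at 2 µM, and 68.6 and 69.3 CPM at 10 µM. The 2 µM libraries lay on both sides of the controls, while both 10 µM libraries lay below all others. On the log2 scale its fold change was 0.01 (SE 0.0675) at 2 µM, -0.47 (SE 0.0768) at 10 µM and -0.48 (SE 0.0771) between 10 and 2 µM. The 10 µM value against 0 µM was -0.26 under scaling to total counts.

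The other importers, Slc39a6 and Slc39a7, had libraries apart from the controls at the high dose alone. Slc39a6, a plasma membrane importer that forms a complex with Slc39a10, had 82.6, 94.2 and 97.0 CPM at 0 µM, 84.5, 90.5 and 97.4 CPM at 2 µM, and 79.9 and 70.2 CPM at 10 µM. The log2 fold change of Slc39a6 was -0.01 (SE 0.0871) and -0.29 (SE 0.0982) at 2 and 10 µM, and -0.07 at 10 µM with total counts alone. Slc39a7, which releases zinc from the endoplasmic reticulum and Golgi, had 188, 169 and 163 CPM at 0 µM, 180, 185 and 161 CPM at 2 µM, and 158 in each 10 µM library. For Slc39a7 the log2 fold change was 0.02 (SE 0.0787) at 2 µM and -0.13 (SE 0.0883) at 10 µM, and 0.09 at 10 µM with total counts alone, so its direction at 10 µM depends on the scaling. Both genes overlapped between 0 and 2 µM, and their 10 µM libraries were the lowest.

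**Figure D2:**
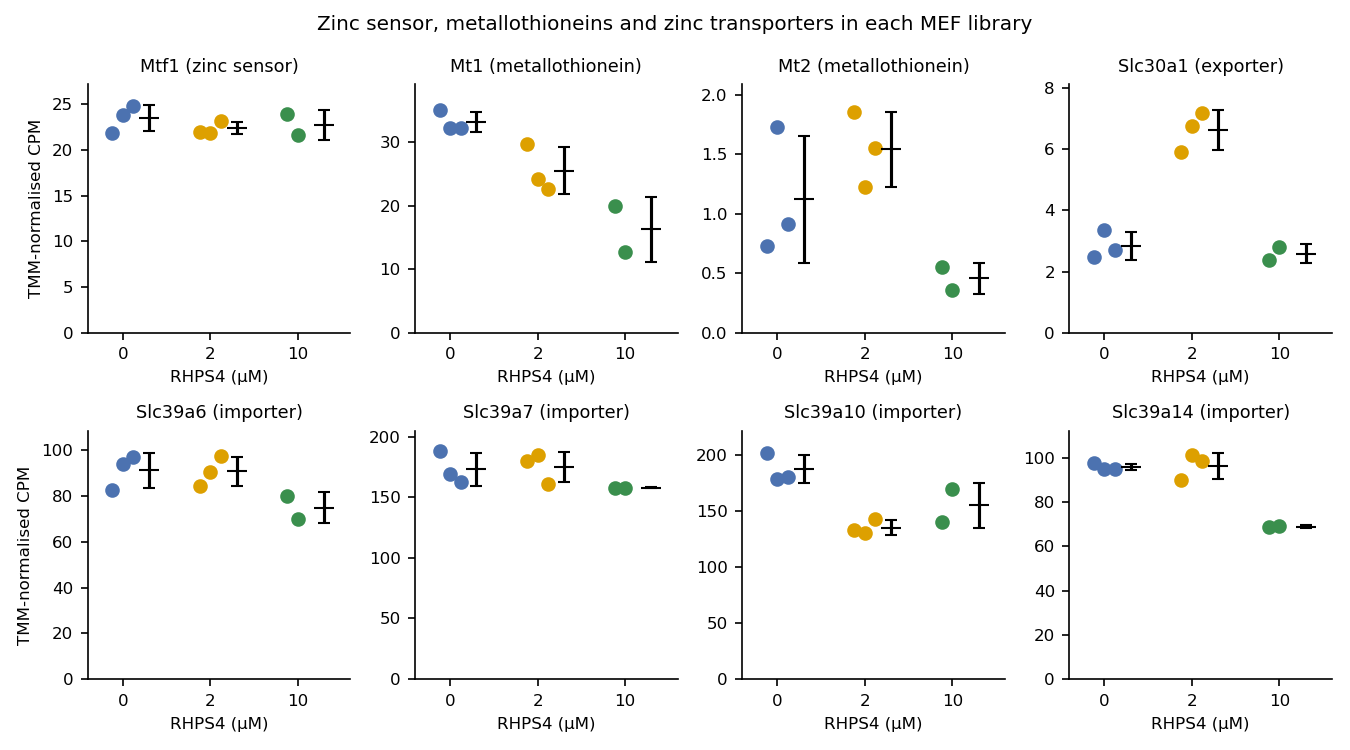
TMM-normalised CPM (y axis, from 0) of the 8 zinc genes in each library against the RHPS4 dose in µM (x axis). Points are libraries and black marks are means with SD (n = 3, 3 and 2). Slc30a1 is highest in the 3 libraries at 2 µM, Mt1 steps down with dose, Slc39a10 is lower at both doses, and Slc39a14 and Mt2 are lowest at 10 µM.

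Counted over the 8 genes, libraries did not overlap for 3 at 2 µM against 0 µM (Slc30a1 higher, Mt1 and Slc39a10 lower), against 25.7% of all 14296 genes tested (12.7% higher, 12.9% lower). At 10 µM against 0 µM they did not overlap for 6, all lower (Mt1, Mt2 and the 4 importers, of which Slc39a7 had a log2 value of 0.09 with total counts alone), against 42.9% of genes tested (22.9% higher, 20% lower). Between 10 and 2 µM they did not overlap for 6, all lower at 10 µM (Mt1, Mt2, Slc30a1, Slc39a6, Slc39a7 and Slc39a14), against 51.8% of genes tested (27% higher, 24.9% lower). A fold change over 1.5, without a test, was met by Slc30a1 at 2 µM (1 of 8, against 5.41% of genes tested), by Mt1 and Mt2 at 10 µM (2 of 8, against 11%), and by Mt1, Mt2 and Slc30a1 between 10 and 2 µM (3 of 8, against 14.9%). Since these genes were chosen on the same counts, nothing is read from these shares. The comparisons with 0 µM share their control libraries. The median log2 fold change of the 4 importers was 0.00 at 2 µM and -0.28 at 10 µM, and that of all genes tested was -0.01 and 0.02.

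Levels between genes were compared per kilobase of annotated exon, with the exons of all transcripts of a gene joined. For Mt1 these exons cover the whole gene, 1246 bases. A shorter Mt1 mRNA would give a higher level per kb, so the rank of Mt1 below depends on this length. At 0 µM the order was Slc39a7 (62.9 to 72.8 CPM per kb), Slc39a10 (29.3 to 33.0), Mt1 (25.9 to 28.1), Slc39a6 (20.3 to 23.8), Slc39a14 (8.99 to 9.23), Mtf1 (2.46 to 2.78), Mt2 (1.24 to 2.95) and Slc30a1 (0.475 to 0.643). In that order only Mtf1 and Mt2 overlapped as neighbours. At 2 µM, Slc39a6 (20.8 to 23.9), Slc39a10 (21.3 to 23.5) and Mt1 (18.2 to 23.8 CPM per kb) could no longer be ordered, and Mtf1 and Mt2 again overlapped. At 10 µM, Slc39a10 (23.0 to 27.7), Slc39a6 (17.2 to 19.6) and Mt1 (10.2 to 16.0 CPM per kb) were separate again, now with Mt1 under Slc39a6. Slc30a1 was the lowest of the 8 in mean level per kb at each dose, also at 2 µM, where its CPM was highest.

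Ratios within a library do not depend on how libraries are scaled. The log2 ratio of Mt1 plus Mt2 counts to those of the 4 importers was -3.99, -3.98 and -4.01 in the controls, -3.95, -4.31 and -4.36 in the 2 µM libraries, and -4.45 and -5.16 in the 10 µM libraries. The 3 controls were within a narrow range, 2 µM replicate 1 lay above them, and both 10 µM libraries lay below all others. The change in the mean was -0.21 at 2 µM and -0.81 at 10 µM. Weighting the genes equally, as a mean of log2 counts, turned the 2 µM change to 0.18, since Mt2 then counts as much as Mt1. Slc30a1 against Slc39a10 gave -6.31, -5.72 and -6.05 in the controls, -4.48, -4.26 and -4.31 in the 2 µM libraries, and -5.86 and -5.89 in the 10 µM libraries. Only the 2 µM libraries stood apart there, with a change of 1.67 against 0.15 at 10 µM. For Slc30a1 against Mt1 the means were -3.53 ± 0.268, -1.94 ± 0.346 and -2.6 ± 0.627 on the log2 scale (n = 3, 3 and 2), and both doses were above every control.

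**Figure D3:**
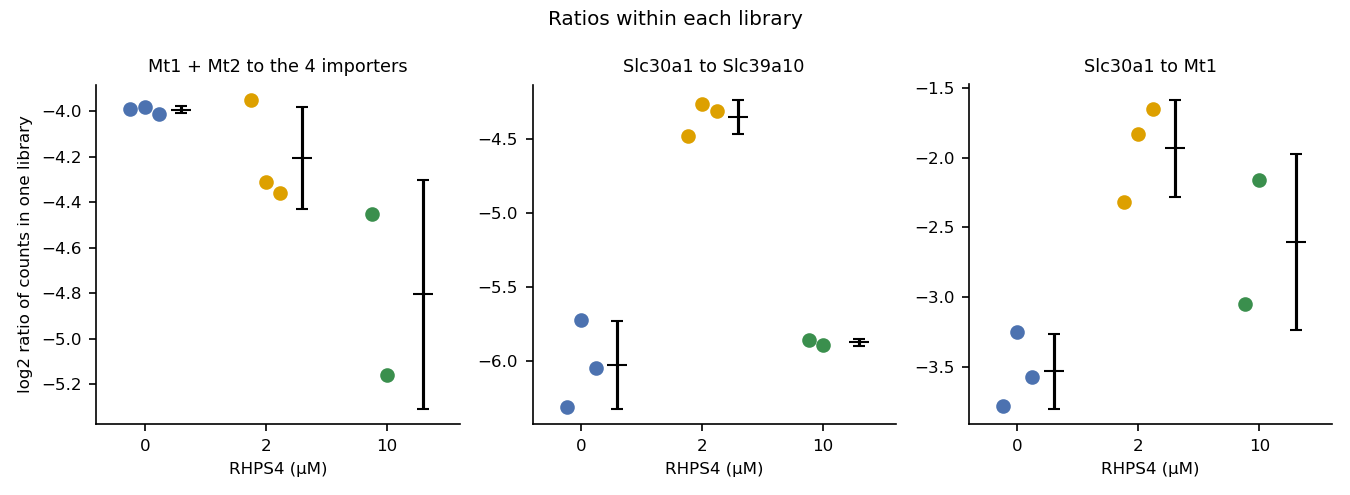
Log2 ratios of counts within each library (y axis, with 0.5 added to each sum of counts) against RHPS4 in µM (x axis). Points are libraries and black marks are means with SD (n = 3, 3 and 2). The metallothionein to importer ratio is lowest at 10 µM, Slc30a1 to Slc39a10 is high at 2 µM alone, and Slc30a1 to Mt1 is above the controls at both doses.

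No call was made among the zinc genes outside these 8. Of 22 other zinc genes, 12 passed the filter on low counts, 5 of 10 exporters, 7 of 10 importers and 0 of 2 metallothioneins. None was a DEG, defined as an adjusted p under 0.01 with a fold change over 1.5 in edgeR's quasi-likelihood test with Benjamini-Hochberg adjustment over all genes, at 2 µM, at 10 µM or between them. At an unadjusted p under 0.05 there were 1, 1 and 2 of the 12, where 21.3%, 29.4% and 36.5% of all genes tested passed, and DESeq2 also called 0 in each comparison. The background of DEGs among all genes tested was 0.497% at 2 µM (0.119% higher, 0.378% lower) and 3.09% at 10 µM (1.95% higher, 1.14% lower). Between 10 and 2 µM it was 5.51% (3.92% higher, 1.59% lower). The share at 2 µM was not stable. Its 71 DEGs became 6 without 2 µM replicate 2 and 144 without 0 µM replicate 1. The median log2 fold change of the 12 was -0.01 at either dose. Among exporters of intracellular vesicles and the Golgi, Slc30a4 had 342 ± 23.7, 338 ± 12.5 and 341 ± 19.4 CPM, and Slc30a7 had 91.9 ± 0.959, 91.9 ± 0.442 and 91.2 ± 0.185 CPM at 0, 2 and 10 µM (n = 3, 3 and 2). Slc30a5 and Slc30a6, which work as a pair in the early secretory pathway, had log2 fold changes of 0.06 and -0.07 at 2 µM and of -0.14 and 0.08 at 10 µM. For the plasma membrane importer Slc39a1 these were -0.05 and -0.11.

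The importer nearest to a call was Slc39a13, a Golgi and vesicle transporter needed in connective tissue. Its level was 31.3 ± 0.366 CPM at 0 µM (n = 3), 35.4 ± 3.0 at 2 µM (n = 3) and 25.1 ± 3.3 at 10 µM (n = 2). Its log2 fold change between 10 and 2 µM was -0.49 (SE 0.107, edgeR adjusted p = 0.00809), which is under 1.5-fold. Against 0 µM it was 0.17 at 2 µM (adjusted p = 0.31) and -0.31 at 10 µM (adjusted p = 0.0748). Without 10 µM replicate 1, the value between 10 and 2 µM was -0.67 (adjusted p = 0.00786), which met both criteria. Slc39a2 had the largest value at 2 µM, 0.92 (SE 0.37, adjusted p = 0.183), from only 4 to 19 counts per library. Mt3 (0 to 4 counts) and Mt4 (0 to 2 counts), the brain and epithelial metallothioneins, were too low to test.

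**Figure D4:**
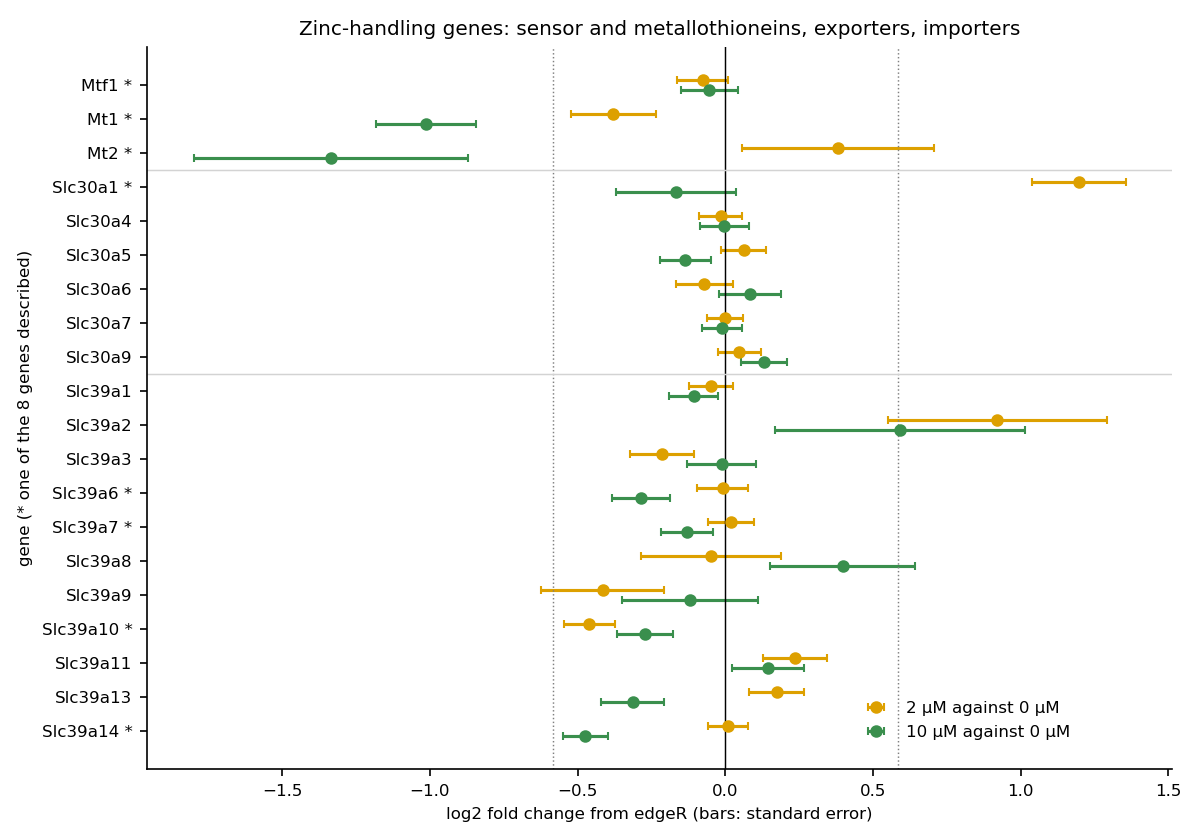
Log2 fold changes from edgeR at 2 µM and 10 µM against 0 µM RHPS4 (x axis) for the tested genes of zinc handling (y axis), with standard errors as bars. Asterisks mark the 8 genes chosen on these counts, and dotted lines mark 1.5-fold. Mt1, Mt2 and Slc30a1 lie past a line in 1 comparison each, and Slc39a2, with wide bars, lies past the line on the right in both.

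Other genes linked to MTF1 and to inducers of metallothioneins were examined in 3 lists of 7 genes, of which 18 of 21 genes were tested. At 2 µM 1 of 18 was a DEG (Ndrg1, lower, where 0.378% of genes tested were lower DEGs), at 10 µM 1 (Tsc22d3, higher, against 1.95%), and between 10 and 2 µM 2 (Ndrg1 and Tsc22d3, both higher at 10 µM, against 3.92%). The MTF1-linked list had 5 tested genes with a median log2 fold change of -0.04 at 2 µM and 0.17 at 10 µM. Gclc, a subunit of the enzyme that begins glutathione synthesis, gave 0.03 and -0.10, and the nuclear selenoprotein gene Selenoh gave 0.21 and 0.19. Neither was a DEG.

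Ndrg1, a stress gene also known for its response to hypoxia, was the MTF1-linked gene called as a DEG. It had 124, 108 and 128 CPM at 0 µM, 60.2, 61.1 and 76.2 CPM at 2 µM, and 137 and 170 CPM at 10 µM. The 2 µM libraries were all below the others and the 10 µM libraries all above. Its log2 fold change was -0.86 at 2 µM (SE 0.114, edgeR adjusted p = 0.00277), 0.35 at 10 µM (SE 0.123, adjusted p = 0.0825) and 1.22 between 10 and 2 µM (SE 0.124, adjusted p = 8.6e-05). The call at 2 µM was lost without 0 µM replicate 2 (adjusted p = 0.0117) or 3 (adjusted p = 0.0175), or without 2 µM replicate 1 (adjusted p = 0.0168) or 2 (adjusted p = 0.0316).

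The metal and oxidant stress list had 6 tested genes and no DEG in any comparison by edgeR as used here. At an unadjusted p under 0.05 there were 1, 3 and 5 of the 6 at 2 µM, at 10 µM and between them, against 21.3%, 29.4% and 36.5% of all genes tested. Its median log2 fold change was 0.00 at 2 µM and -0.40 at 10 µM. Srxn1, which repairs oxidised peroxiredoxins, was lower at 10 µM by a log2 value of -0.41 (SE 0.0774, adjusted p = 0.00601). The heat shock co-chaperone Dnajb1 was lower by -0.43 (SE 0.0872, adjusted p = 0.00855). Both passed the adjusted p and stayed under 1.5-fold. Between 10 and 2 µM Dnajb1 lay at the edge of the fold threshold, with -0.58 (SE 0.0876, adjusted p = 0.00108). It became a DEG there by edgeR with RLE scaling (-0.59), with TMM over nuclear genes (-0.59), with no filter on low counts (-0.62) and with the replicate block (-0.62), and by DESeq2 (-0.62). Gclm, the partner of Gclc, had -0.53 at 10 µM against 0 µM (SE 0.114, edgeR adjusted p = 0.0116). Between 10 and 2 µM Gclm also had -0.53 (SE 0.114, edgeR adjusted p = 0.00718), under 1.5-fold. Hmox1, the heme oxygenase induced by many metals, had -0.40 at 2 µM (SE 0.107, adjusted p = 0.0589) and -0.06 at 10 µM (adjusted p = 0.759).

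Glucocorticoid targets had values on both sides of 0 at 10 µM. Tsc22d3 (GILZ), which limits inflammatory signalling, rose from 25.0 ± 1.83 CPM at 0 µM (n = 3) to 40.1 ± 2.96 at 10 µM (n = 2), with 21.4 ± 0.404 at 2 µM (n = 3). Its log2 fold change at 10 µM was 0.67 (SE 0.0928, edgeR adjusted p = 0.000911), and the call was lost without 10 µM replicate 2 (0.57, adjusted p = 0.0219). Fkbp5, a co-chaperone of the receptor, had -0.66 (SE 0.203, adjusted p = 0.0516), and DESeq2 gave -0.69 (adjusted p = 0.00771). Klf9 had 0.46 (adjusted p = 0.0206) and Per1 had -0.53 (adjusted p = 0.135). The receptor gene Nr3c1 gave 0.04 and 0.08 at 2 and 10 µM (adjusted p = 0.824 and 0.641). The median of the 7 genes was 0.01 at 2 µM and 0.08 at 10 µM.

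**Figure D5:**
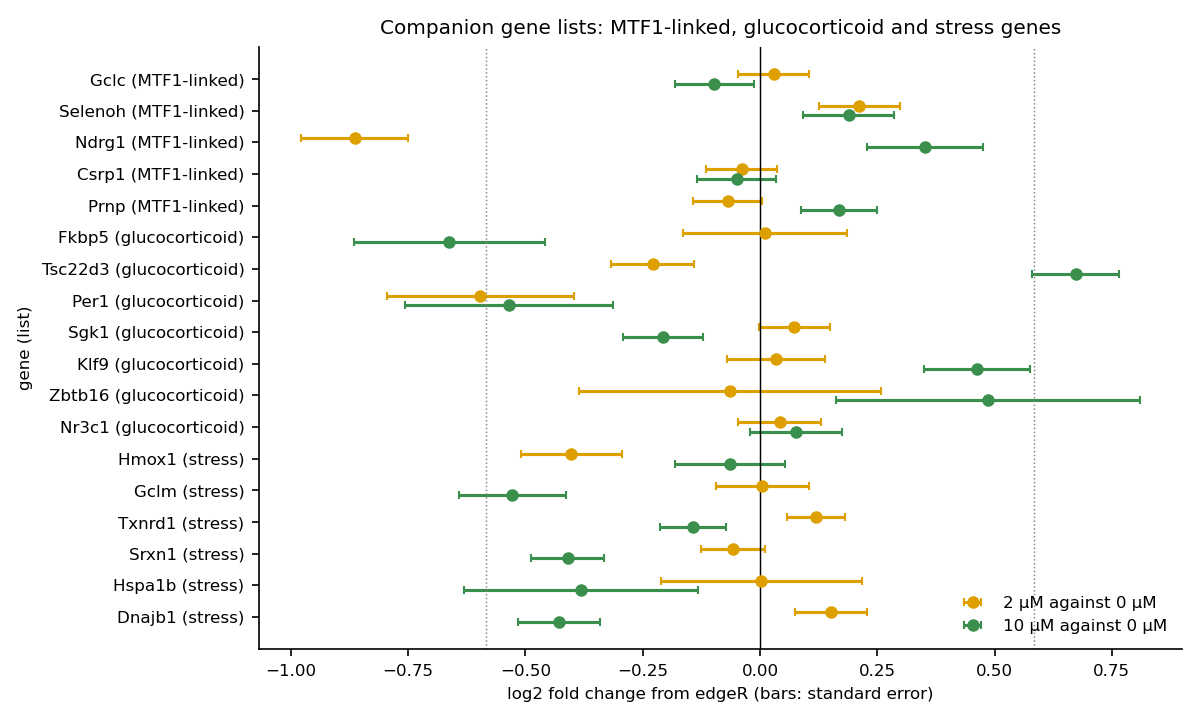
Log2 fold changes from edgeR at 2 µM and 10 µM against 0 µM RHPS4 (x axis) for the 18 tested genes of 3 companion lists (y axis), with standard errors as bars and dotted lines at 1.5-fold. Ndrg1 at 2 µM and Tsc22d3 at 10 µM are the DEGs, and 4 of the 6 stress genes lie near -0.4 or below at 10 µM, namely Gclm, Srxn1, Dnajb1 and Hspa1b.

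Genes beside the metallothionein pair were compared next, since Mt1 and Mt2 are neighbours. Mt2 lies at chr8:94172664-94173568 and Mt1 at chr8:94179082-94180327, both on the plus strand of GRCm38. Of the 3 protein-coding genes on each side, 4 were tested, and Mt3 and Mt4 were too low. None of the 4 was a DEG at 2 µM by edgeR, with 0 at an unadjusted p under 0.05, against 0.497% and 21.3% of all genes tested. At 10 µM 1 of 4 was a DEG, against 3.09%, and 3 of 4 had an unadjusted p under 0.05, against 29.4%. Herpud1, an endoplasmic reticulum stress gene 206.1 kb beyond Mt1, rose from 78.3 ± 3.16 CPM (n = 3) to 136 ± 2.2 CPM (n = 2). That is a log2 fold change of 0.80 (SE 0.0756, edgeR adjusted p = 6.42e-05). Nearer to the pair, the nucleoporin gene Nup93, 34.2 kb beyond Mt1, gave -0.37 (SE 0.0877, adjusted p = 0.0192). On the other side Bbs2, a ciliary gene 73.7 kb before Mt2, gave 0.43 (SE 0.101, adjusted p = 0.0178). Slc12a3, 148.9 kb beyond Mt1, gave 0.67 (SE 0.428, edgeR adjusted p = 0.329) from only 8 to 17 counts per library. At 10 µM Nup93 was the only tested neighbour below 0, the side on which Mt1 and Mt2 lay. Whether the position of the pair bears on its levels was not tested.

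Mapping could blur a few of the 8 genes. The remaining members lie at chr4:124802104-124849800 (Mtf1, plus strand), chr1:191906767-191913247 (Slc30a1, plus), chr18:24579881-24603817 (Slc39a6, minus), chr17:34028269-34031682 (Slc39a7, minus), chr1:46807544-46892852 (Slc39a10, minus) and chr14:70303469-70351425 (Slc39a14, minus). For Mt1, Slc39a6, Slc39a10 and Slc39a14, no 75-base word of the transcripts was found in another annotated gene. The share of such words found in another gene was 7.27% for Mtf1 (1110065P20Rik, opposite strand), 7.54% for Slc30a1 (1700034H15Rik, antisense), 30.2% for Mt2 (Gm45774, antisense) and 71.6% for Slc39a7 (Gm20427, same strand). Of these, 1110065P20Rik and 1700034H15Rik are in the count table and the others are not. Elp2, also in the table, overlaps Slc39a6 on the opposite strand. The libraries keep strand, but whether the counting used it is not given in the sources used here, so the levels of these genes carry this uncertainty.

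The genes whose log2 CPM followed each member most closely over the 8 libraries were picked by Pearson's r, as a description of libraries that share dose and composition. For Mt1 they were Gm10785 (r = 0.979), Sept9 (r = 0.978) and Lpcat3 (r = 0.978), and Lpcat3, a phospholipid acyltransferase, went from 42.1 to 37.5 to 30.3 CPM with dose. For Slc30a1 they were Ddx31 (r = 0.987), Klhl23 (r = 0.982) and Cdan1 (r = 0.98), and Ddx31, an RNA helicase, had mean levels of 26.4, 37.0 and 25.0 CPM. Mt2 was followed by Fancm (r = 0.985), Rbm12 (r = 0.963) and Rapgef2 (r = 0.958). The importer Slc39a10 was followed by Prr13 (r = 0.976), Rgs3 (r = 0.974) and Edil3 (r = 0.968), with Edil3 at 115, 89.9 and 98.5 CPM. Pradc1 (r = 0.994), Chml (r = 0.987) and Ext1 (r = 0.984) came closest to Slc39a14. For Slc39a6 the list was Ammecr1 (r = 0.996), Foxm1 (r = 0.991) and Arfrp1 (r = 0.986), and for Slc39a7 it was Cnot2 (r = 0.979), Tmem234 (r = 0.962) and Marveld1 (r = 0.95). Mtf1, whose groups overlapped, went with Cacnb3 (r = 0.997), Ppard (r = 0.982) and Gatc (r = 0.98). No gene was among the 3 closest for more than 1 member. An r over 0.9 was shared by 0.21 to 2.05% of the genes tested, depending on the member.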

How the data were processed

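RNA-Seq counts came from MEF cells exposed to 0 µM (n = 3), 2 µM (n = 3) and 10 µM (n = 2) RHPS4, grouped by the dose in the labels. The authors made stranded total RNA libraries without nuclear rRNA, trimmed the 75-base reads with Trim Galore and cutadapt, aligned them to mm10 with STAR 2.5.2a, and counted fragments uniquely mapped to genes with featureCounts. The deposited values are whole-number counts per gene without normalization. The gene annotation used by the authors is not given in the sources used here. No unmapped column was present.

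The tests were edgeR's (4.0.16, under R 4.3.3; filterByExpr, TMM, glmQLFit and glmQLFTest, Benjamini-Hochberg adjustment over 14296 tested genes of 24460), with all libraries in a fit on dose. DEGs were called at the study's thresholds, a 1.5-fold change with adjusted p below 0.01. The study used DESeq2 (here 1.42.0, as an alternative). On simulated 2-fold changes between 2 and 0 µM, edgeR recovered 191 of 200 changed genes with 2 false calls among 14203. The changed genes were drawn only from those well counted in the smallest library. Recovery of genes as rare as Mt2 or Slc39a2 was therefore not measured. The closest replicates, 0 µM replicates 2 and 3, had a chi-square per degree of freedom of 3.23, above sampling noise, and each library was kept as a replicate. The floor of 3 counts covers counting error alone, because PCR copies of a fragment are no independent molecules.

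Members and lists were chosen with earlier results of these data known. The named genes are the 8 members, all other Slc30, Slc39 and metallothionein genes listed in the text, 3 companion lists, the 3 protein-coding genes on each side of the Mt1 and Mt2 pair, and the 3 genes most correlated with each member. Ratios used counts plus 0.5. Positions, exon lengths and 75-base words came from GENCODE M21 for GRCm38, and promoters from RefSeq. Alternatives were other scalings (RLE, TMM over nuclear genes, total counts), filters (none, or 10 counts in every library), DESeq2, the replicate block, only the groups compared, and leaving out each library.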

Additional observations from a re-analysis of the deposited data

How the results depend on the processing

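Alternatives were other scalings, filters, DESeq2, a fit on only the groups compared, the replicate block and leaving out each library. The member values past 1.5-fold kept their direction with any 1 library left out and under the other scalings. Scaling to total counts alone moved the median log2 fold change of all genes to 0.07 at 2 µM and 0.23 at 10 µM against 0 µM, and the share of DEGs that were higher from 23.9% to 39.4% and from 63.1% to 92.6%. Under it Mtf1 (0.16), Slc39a7 (0.09) and Slc30a1 (0.04) at 10 µM lay on the other side of 0, by less than the shift of the median. DEGs among companion genes at 10 µM numbered 1 in the report, 2 with total counts alone or DESeq2, and 0 to 3 with a library left out (0 without 10 µM replicate 2, 3 without 0 µM replicate 1). Between 10 and 2 µM they numbered 2, with 4 by DESeq2, 3 with RLE scaling, TMM over nuclear genes, no filter or the replicate block (each adding Dnajb1), and 2 to 4 with a library left out (4 without 0 µM replicate 1), and at 2 µM 1, with 0 to 1. Other zinc genes between 10 and 2 µM gave 0 to 1 (1 without 10 µM replicate 1). Members past 1.5-fold at 10 µM numbered 1 where 10 counts were required in every library, since Mt2 was not tested there, and at 2 µM 1 to 2 with a library left out (2 without 0 µM replicate 2). Between 10 and 2 µM they numbered 3, with 2 under total counts alone, under the filter of 10 counts, and without 2 µM replicate 1 or 10 µM replicate 2. As a mean of log2 counts the metallothionein to importer ratio changed by 0.18 at 2 µM and by -1.01 between 10 and 2 µM, against -0.21 and -0.59 from summed counts. With a library left out it ran from -1.17 to -0.45 at 10 µM, from -0.95 to -0.24 between 10 and 2 µM, and from -0.35 to -0.14 at 2 µM. Where a 10 µM library was left out, the lone library was assumed to vary like the others. Same-numbered 0 and 2 µM libraries had deviations correlated at 0.199, 0.085 and 0.161, and 6 of 6 correlated best with their own number. Same-numbered 0 and 10 µM libraries gave -0.145 and -0.105, and 2 and 10 µM libraries gave -0.021 and -0.061. Whether the numbers pair the 0 and 2 µM libraries was not settled. The main fit did not use the numbers, and the replicate block is the alternative that did. With the replicate block the DEGs over all genes numbered 54, 322 and 735, against 71, 442 and 788. Of the members, depth limited Mt2 most, at 5 to 35 counts per library.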
